A study of Mus musculus with 9 samples.

Results

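The genes described here encode both liver X receptors (LXRs), Nr1h3 and Nr1h2, and 8 proteins of cholesterol efflux, phospholipid remodelling, cholesterol esterification and high-density lipoprotein (HDL) uptake that LXRs are known for controlling or that act beside those targets. They are 10 of 55253 gene symbols in the deposited table, chosen by name, and all 10 had a mean level of 1 CPM or more, the filter used here (CPM being read counts scaled by library size, with the authors' TMM adjustment). Liver RNA came from male C57Bl/6J mice. In the WD+alcohol group, 5 mice started at 10 weeks of age on a Western diet with 10% alcohol in their sweetened water, and stayed on it for 23 weeks. The control group held 4 mice on chow and plain tap water, whose sample titles carry the same 23 weeks and whose age was taken as the same 10 weeks at the start because the labels state it only once. Thus diet, alcohol and sweetener differed together and their parts cannot be told apart.

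LXRs are nuclear receptors that bind oxysterols, pair with the retinoid X receptor and switch on genes that move sterol out of cells. In liver, their targets send cholesterol into bile through Abcg5 and Abcg8 and onto HDL through Abca1, and change membrane phospholipids through Lpcat3. LXRα, the product of Nr1h3, is abundant in liver and macrophages, while LXRβ, the product of Nr1h2, is found in most cells.

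Of these 10 genes, 2 rose with WD+alcohol, Abcg5 and Abcg1, and 0 fell, at an adjusted p under 0.05 in a limma-trend fit over all 14759 genes tested. The background was 2.29% of all genes called in either direction, 1.61% called higher and 0.678% called lower. The count was also 2 with edgeR and with DESeq2 on reads recovered from the table, which called 2.48% and 3.22% of all genes they tested. The same 2 genes had no overlap between the groups, with WD+alcohol above control. Over all genes tested, 5.34% had no such overlap in either direction and 3.34% had WD+alcohol above control. Log2 fold changes were positive for 9 of the 10, although those of Soat1 and Soat2 turned negative without some libraries. Their median over the 10 genes was 0.11, against a median of -0.00077 over all genes tested.

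The libraries held 3635860 to 6643645 reads in genes for WD+alcohol and 5050763 to 5910285 for control. Summed levels of 14 hepatocyte markers were 41135 to 55199 CPM with WD+alcohol and 56215 to 81648 CPM in controls, without overlap. Alb was the largest part of this sum (means of 18876 CPM with WD+alcohol and 33497 CPM in controls), so the separation rests largely on Alb. None of the 14 was at 0 in any library, and 0 rose and 2 fell (0 to 5 lower over the alternatives). Log2 fold changes were negative for 13 of the 14, with a median of -0.39. Summed levels of 16 macrophage markers were 830 to 1284 CPM with WD+alcohol and 346 to 480 CPM in controls, also without overlap. Of the 16, 13 rose (10 to 14 over the alternatives). Cd14, Marco and Timd4 were not called (limma-trend adjusted p = 0.0631, 0.532 and 0.843). Timd4 was the only 1 with a negative log2 fold change (-0.22), and its levels rest on 6 to 20 reads per library. Summed levels of 12 sinusoidal endothelial markers were 217 to 280 CPM with WD+alcohol and 160 to 240 CPM in controls, and overlapped. Of the 12, 1 rose (0 to 2 over the alternatives). The count was 0 without WD+alcohol 5 or control 3, and 2 without control 2 or 4. Their median log2 fold change was 0.36, and 6 of the 12 had an unadjusted limma-trend p under 0.05, against 12.2% of all genes. Of 4 cholangiocyte markers tested 0 rose and 0 fell. In liver as a whole, a change in the number of cells of a type and a change in RNA per cell cannot be told apart, and the part of these shifts in the results below was not tested.

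**Figure D1:**
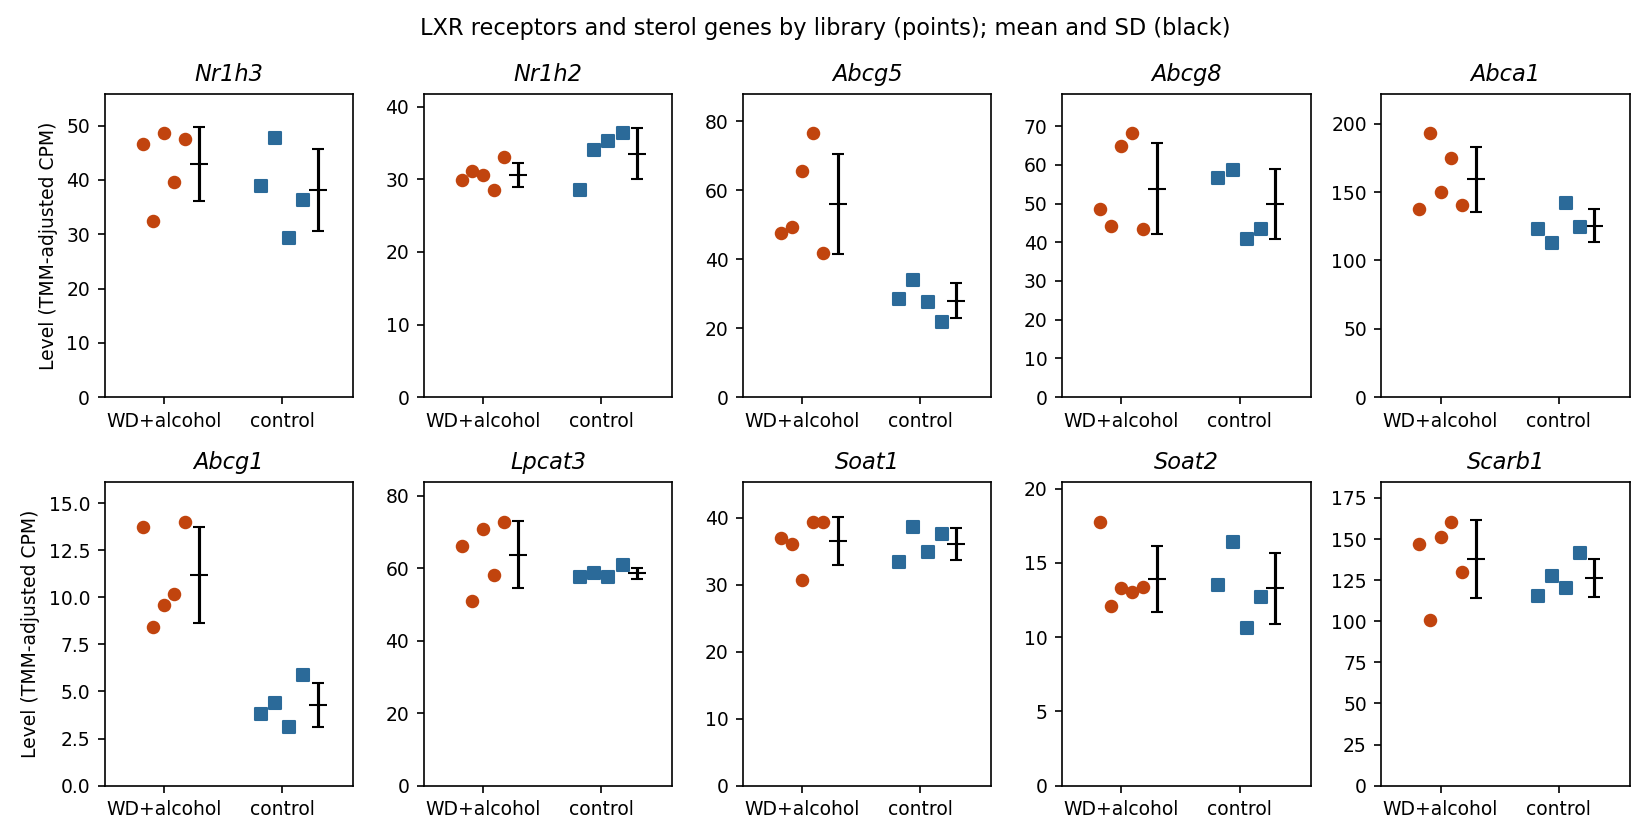
Levels of the 10 genes in TMM-adjusted CPM, 1 panel per gene, with WD+alcohol libraries as circles (n = 5) and control libraries as squares (n = 4); black bars are the mean and SD. Abcg5 and Abcg1 are the panels in which every WD+alcohol library lies above every control library.

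Abcg5 and Abcg8 encode partner proteins that work only as a pair, the sterol transporter of the bile canaliculus. Their genes lie head to head on chromosome 17. The Abcg5 promoter window is shown because it holds the start sites of both genes. Its part in the different values of the 2 genes below was not tested. RefSeq (GRCm38.p6) places it at chr17:84682962-84683261 on the minus strand, and the capitals run from the Abcg8 start to the Abcg5 start, which are 110 bases apart.
Abcg5: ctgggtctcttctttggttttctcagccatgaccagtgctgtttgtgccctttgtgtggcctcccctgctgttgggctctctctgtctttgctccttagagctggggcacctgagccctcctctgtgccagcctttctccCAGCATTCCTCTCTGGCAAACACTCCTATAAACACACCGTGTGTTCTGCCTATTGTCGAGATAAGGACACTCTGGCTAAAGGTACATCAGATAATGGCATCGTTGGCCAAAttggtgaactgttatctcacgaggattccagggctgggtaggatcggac
The windows of both genes, each 250 bases before to 50 after a start, share 209 bases, and RefSeq lists another Abcg8 start 6709 bases from that of Abcg5. The motif GATAA, searched on both strands as the core read by GATA factors, was found 3 times in the printed window, 2 of them in capitals, and 25.4% of 32851 mouse promoters of the same length hold it at least once. The LXR element DR4, a pair of AGGTCA repeats on the same strand with 4 bases between them, had no match in this window with fewer than 4 mismatches on either strand, and 76.9% of promoters match it that well. The submitters' processing notes name the later build GRCm39 for the reads, so these positions are used only to show the sequence.

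Abcg5 had 47.4, 49.2, 65.5, 76.5 and 41.6 CPM in WD+alcohol livers, against 28.5, 34.0, 27.6 and 21.8 CPM in control livers. The lowest WD+alcohol library was above the highest control. Abcg5 averaged 56.1 ± 14.5 CPM with WD+alcohol (SD, n = 5) and 28 ± 5.01 CPM in controls (SD, n = 4), so the mean level was 2-fold that of controls. On the log2 scale it rose by 0.96 ± 0.17 (SE; 95% interval 0.59 to 1.32; limma-trend adjusted p = 0.00798). The call held with any single library left out (adjusted p 0.00738 to 0.0274).

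Abcg8 had 48.5, 44.2, 64.8, 68.2 and 43.4 CPM in WD+alcohol livers, against 56.5, 58.6, 40.8 and 43.4 CPM in control livers. The groups overlapped over most of their range. Its means were 53.8 ± 11.8 CPM (SD, n = 5) with WD+alcohol and 49.8 ± 9.02 CPM (SD, n = 4) in controls. The log2 fold change was 0.10 (95% interval -0.23 to 0.43; limma-trend adjusted p = 0.868), so a rise of the size seen for Abcg5 lies outside its interval.

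The 2 genes thus stood in a different proportion in the 2 groups. Abcg5 divided by Abcg8 was 0.978, 1.11, 1.01, 1.122 and 0.959 in WD+alcohol livers, against 0.504, 0.581, 0.677 and 0.502 in control livers, with no overlap. The mean ratio was 1.04 ± 0.077 (SD, n = 5) with WD+alcohol and 0.566 ± 0.082 (SD, n = 4) in controls. On the log2(CPM + 1) scale, the ratio was higher with WD+alcohol by 0.86, and an exact permutation test over the 9 libraries, two-sided, gave p = 0.00794, the smallest that 5 against 4 libraries can give. This ratio was chosen after the values had been seen not to overlap, so this p adds no support to the difference. Within each group the levels of the pair moved together: WD+alcohol 3 and 4 were the highest of their group for both genes, and controls 1 and 2 the highest of theirs. After subtraction of group means, Pearson's r of their log2 levels was 0.88 over 9 libraries, the highest of the 45 pairs among the 10 genes, given as a description because libraries share depth and scaling. Each gene had at least 115 reads in every library, and exons of the 2 genes overlap by 82 bases in GENCODE vM21, none of them in the last kilobase of either gene, where 3′ libraries read.

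**Figure D2:**
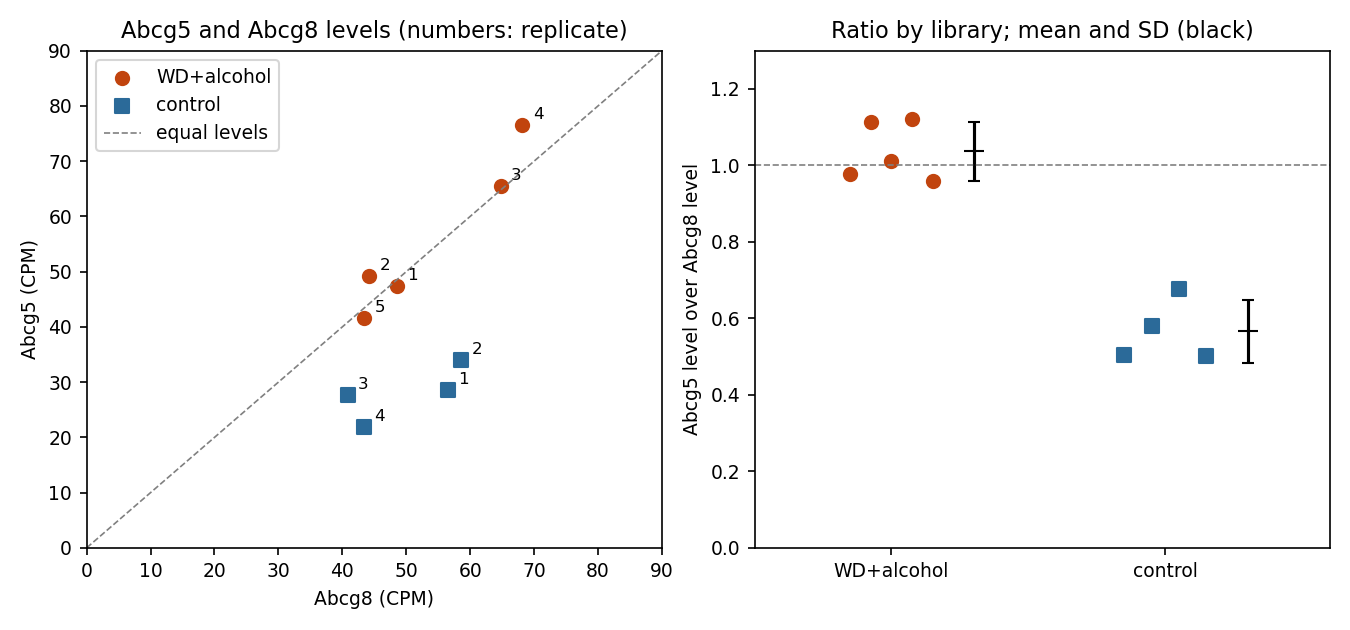
Left, Abcg5 level against Abcg8 level in CPM for each library, WD+alcohol as circles and control as squares, with replicate numbers and a dashed line of equal levels; right, the ratio of the levels by library, with mean and SD in black. WD+alcohol libraries lie along the line of equal levels (ratios 0.959 to 1.122) and control libraries below it (0.502 to 0.677).

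The genes closest to Abcg5 over all 9 libraries, by Pearson's r of log2(CPM + 1) among genes that averaged 5 CPM or more, were Fbp1 (r = 0.96), Ndufa1 (r = 0.95) and Mgst1 (r = 0.95). Fbp1, the gluconeogenic enzyme fructose-bisphosphatase, averaged 271 ± 25.2 CPM with WD+alcohol and 202 ± 8.6 CPM in controls (SD, n = 5 and 4), and it rose (log2 fold change 0.42; limma-trend adjusted p = 0.0114). Mgst1, a microsomal glutathione transferase, averaged 2281 ± 303 CPM with WD+alcohol and 1565 ± 122 CPM in controls and rose (adjusted p = 0.0181). That call was lost when control 1 was left out (0.0576), when control 4 was (0.0679), and with no filter on low levels (0.0683). Ndufa1, a subunit of respiratory complex I, averaged 169 ± 13.5 CPM with WD+alcohol and 143 ± 8.37 CPM in controls and was not called (adjusted p = 0.170). These r values rise with any difference between the groups that the genes share, so they describe a pattern and carry no p.

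Abcg1 encodes a transporter that moves cholesterol onto HDL and is known as an LXR target of macrophages. It had 13.7, 8.40, 9.57, 10.2 and 14.0 CPM in WD+alcohol livers, against 3.79, 4.41, 3.13 and 5.87 CPM in control livers. Every WD+alcohol library was above every control, and WD+alcohol 1 and 5 were the highest. These levels rest on 51 to 70 reads per WD+alcohol library and 18 to 31 per control library. Abcg1 averaged 11.2 ± 2.55 CPM with WD+alcohol (SD, n = 5) and 4.30 ± 1.17 CPM in controls (SD, n = 4), a ratio of means of 2.60. Its log2 fold change was 1.20 ± 0.19 (SE; 95% interval 0.78 to 1.62; limma-trend adjusted p = 0.00449), and its call also held with any single library left out (adjusted p 0.00368 to 0.0186). It was the largest of the 10 at a pseudocount of 1, but at a pseudocount of 5 it was 0.79, below the 0.87 of Abcg5. For Abcg1, DESeq2 on the recovered reads gave 1.37.

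The 3 genes closest to Abcg1 over the 9 libraries were C1qb (r = 0.99), C1qa (r = 0.99) and C1qc (r = 0.99). They encode the subunits of complement C1q, made in liver mainly by Kupffer cells, its resident macrophages. As for Abcg5, these r values rise with any difference between the groups that the genes share, and they carry no p. C1qb had 85.2, 54.7, 54.1, 60.3 and 93.5 CPM in WD+alcohol livers, against 17.6, 20.8, 10.9 and 29.7 CPM in control livers. Its log2 fold change was 1.81 ± 0.24 (SE), that of C1qa 1.72 ± 0.20 and that of C1qc 1.85 ± 0.17, and all 3 rose (limma-trend adjusted p at most 9.18e-04). As a share of the summed level of the 16 macrophage markers, Abcg1 stood at 1.07%, 1.01%, 1.10%, 1.01% and 1.09% in WD+alcohol livers, against 0.889%, 1.08%, 0.904% and 1.22% in control livers. The means were 1.056% ± 0.044 (SD, n = 5) with WD+alcohol and 1.02% ± 0.16 (SD, n = 4) in controls, and the groups overlapped. Abcg1 is not 1 of the 16 markers, so this share is a ratio to their sum. In controls it rests on 18 to 31 reads of Abcg1 per library. The share is a description that depends on the markers summed, since they changed by unequal amounts. Their log2 fold changes ran from -0.22 to 3.35. Mpeg1 (0.44) lay below the 1.20 of Abcg1 and C1qa (1.72) above it. The part of macrophage content in the level of Abcg1 was not tested. The markers are C1qa, C1qb, C1qc and 13 others, of which Trem2 was at 0 in control 2 and no other marker was at 0 in any library. Like the Abcg5 ratio, this share was chosen after the values had been seen.

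**Figure D3:**
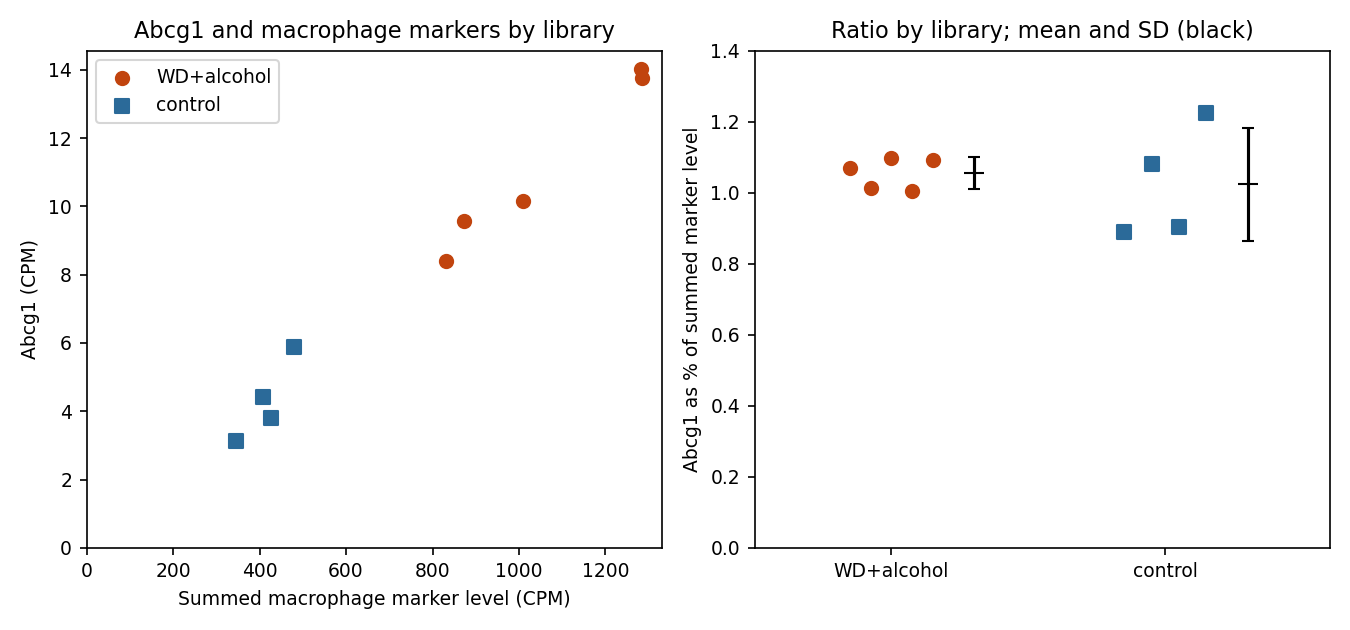
Left, Abcg1 level against the summed level of 16 macrophage markers, both in CPM, for each library (WD+alcohol circles, control squares); right, Abcg1 as a percentage of that sum by library, with mean and SD in black. Abcg1 and the marker sum are both higher in the WD+alcohol libraries, and the percentages overlap at means of 1.056% with WD+alcohol and 1.02% in controls.

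Abca1 loads cholesterol onto apolipoprotein A-I and so starts HDL formation. Its promoter is shown because it is the only one of the 9 windows found for 7 of the 10 genes (Nr1h3, Nr1h2, Abcg5, Abcg8, Abca1, Lpcat3 and Soat1) with a DR4 match at 3 mismatches, the others having 4. RefSeq (GRCm38.p6) gives it as chr4:53159846-53160145 on the minus strand, and the capitals mark that match, which reads in the reverse direction and begins 67 bases before the start site.
Abca1: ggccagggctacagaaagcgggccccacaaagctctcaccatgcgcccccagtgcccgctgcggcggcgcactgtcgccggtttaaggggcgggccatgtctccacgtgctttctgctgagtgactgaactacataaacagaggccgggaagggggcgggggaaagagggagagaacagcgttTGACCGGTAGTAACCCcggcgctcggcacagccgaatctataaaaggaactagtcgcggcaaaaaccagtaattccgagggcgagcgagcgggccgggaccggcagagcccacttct
A DR4 match this good is found in 21.9% of mouse promoters. The window also holds 1 E-box CACGTG, found in 7.15% of promoters. A match describes letters and is no evidence of binding.

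Abca1 had 137, 193, 150, 175 and 141 CPM in WD+alcohol livers, against 123, 113, 142 and 124 CPM in control livers. Most WD+alcohol libraries lay above the controls, and WD+alcohol 1 and 5 lay within the control range. The means were 159 ± 24 CPM (SD, n = 5) with WD+alcohol and 126 ± 12.4 CPM (SD, n = 4) in controls. The log2 fold change was 0.33 ± 0.11 (SE; 95% interval 0.10 to 0.56), with an unadjusted p of 0.00809 and a limma-trend adjusted p of 0.157, so Abca1 did not pass the test; 12.2% of all genes had an unadjusted p under 0.05. It was not called under any alternative (adjusted p 0.0862 to 0.419). With WD+alcohol, Abca1 was highest in WD+alcohol 2, where the macrophage marker sum was lowest of that group. Abca1 stood at 10.7% to 23.3% of that sum with WD+alcohol and at 26% to 41.1% in controls. The sum averaged 1056 CPM with WD+alcohol and 415 CPM in controls, so any gene that rose less than the sum has a lower percentage. The part of macrophage content in the level of Abca1 was not tested.

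**Figure D4:**
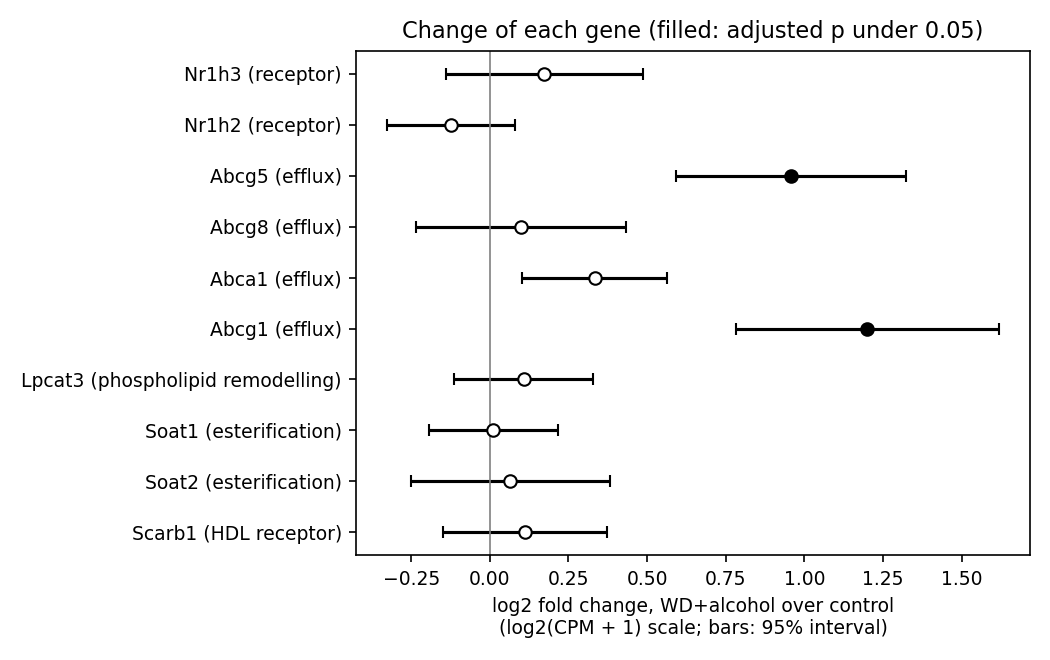
Log2 fold change of each gene, WD+alcohol over control, on the log2(CPM + 1) scale with 95% intervals from limma-trend; filled points have an adjusted p under 0.05. The filled points are Abcg5 (0.96) and Abcg1 (1.20), and the other 8 genes lie between -0.12 and 0.33.

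Neither receptor was called. Nr1h3 had 46.6, 32.4, 48.6, 39.5 and 47.4 CPM in WD+alcohol livers, against 38.9, 47.7, 29.4 and 36.4 CPM in control livers, and the groups overlapped. Its log2 fold change was 0.17 (95% interval -0.14 to 0.49; limma-trend adjusted p = 0.725). Nr1h2 had 29.9, 31.2, 30.6, 28.5 and 33 CPM in WD+alcohol livers, against 28.5, 34.0, 35.3 and 36.4 CPM in control livers. It was the only 1 of the 10 with a negative log2 fold change, -0.12 (95% interval -0.33 to 0.08; adjusted p = 0.692). Per library, Nr1h3 stood at 1.04 to 1.59 times Nr1h2 with WD+alcohol and at 0.833 to 1.4 times Nr1h2 in controls.

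Lpcat3, which puts polyunsaturated fatty acids into membrane phospholipids, had 66.0, 51.0, 70.9, 58.0 and 72.9 CPM in WD+alcohol livers, against 57.7, 58.6, 57.5 and 60.8 CPM in control livers. The control libraries lay close together and within the wider WD+alcohol range. The log2 fold change was 0.11 (95% interval -0.11 to 0.33; limma-trend adjusted p = 0.762). The antisense neighbour Emg1 shares 334 exon bases with the last kilobase of Lpcat3 in GENCODE vM21, so without a stated strand setting reads of the 2 genes cannot be told apart there.

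The cholesterol-esterifying enzymes did not pass the test either. Soat1, the form known from macrophages and most tissues, had 36.9, 36.1, 30.8, 39.4 and 39.4 CPM in WD+alcohol livers, against 33.4, 38.7, 34.9 and 37.5 CPM in control livers. Its log2 fold change was 0.01 (95% interval -0.19 to 0.22; limma-trend adjusted p = 0.981). Soat2, the form of hepatocytes and enterocytes, had 17.8, 12.1, 13.3, 13.0 and 13.4 CPM in WD+alcohol livers, against 13.5, 16.4, 10.6 and 12.7 CPM in control livers. WD+alcohol 1 stood above the rest of its group, on 66 Soat2 reads in the shallowest library. Soat2 had a log2 fold change of 0.07 (95% interval -0.25 to 0.38; adjusted p = 0.918), and both enzymes' estimates changed sign when some libraries were left out. Soat2 made up 27.6% ± 3.5 (SD, n = 5) of the summed Soat1 and Soat2 level with WD+alcohol and 26.8% ± 3 (SD, n = 4) in controls.

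Scarb1 encodes the HDL receptor SR-BI, which takes cholesteryl ester into hepatocytes. It had 147, 101, 151, 161 and 130 CPM in WD+alcohol livers, against 115, 128, 120 and 142 CPM in control livers, so that WD+alcohol held both the highest and the lowest library. Its log2 fold change was 0.11 (95% interval -0.15 to 0.37; limma-trend adjusted p = 0.794). For Scarb1, Lpcat3, Soat1 and Soat2, the upper bound of the interval was at most 0.38, so a rise as large as the estimate for Abcg5 lies outside it in each case.

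Libraries of 3′ ends yield reads without regard to transcript length, so the genes are set in order of counted reads. Counting may differ from gene to gene, as for Lpcat3 with its neighbour Emg1, so the order is not one of RNA amounts. With WD+alcohol the order of mean levels in CPM was Abca1 (159), Scarb1 (138), Lpcat3 (63.8), Abcg5 (56.1), Abcg8 (53.8), Nr1h3 (42.9), Soat1 (36.5), Nr1h2 (30.6), Soat2 (13.9) and Abcg1 (11.2). In controls it was Scarb1 (126), Abca1 (126), Lpcat3 (58.7), Abcg8 (49.8), Nr1h3 (38.1), Soat1 (36.1), Nr1h2 (33.6), Abcg5 (28), Soat2 (13.3) and Abcg1 (4.30). Abcg5 thus held the fourth place with WD+alcohol and the eighth in controls. Neighbours whose libraries did not overlap were Scarb1 and Lpcat3, and Nr1h2 and Soat2, with WD+alcohol. In controls they were Abca1 and Lpcat3, Abcg5 and Soat2, and Soat2 and Abcg1. All other neighbours overlapped.

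Genes around the pathway were read from 4 further lists. Of 15 LXR partners and cofactors, all 15 were tested and 0 were called with limma-trend, edgeR or DESeq2, with 0 at an unadjusted p under 0.05 in limma-trend; their median log2 fold change was -0.04. Rxra, the main retinoid X receptor of liver, averaged 97.3 ± 15.7 CPM with WD+alcohol (SD, n = 5) and 107 ± 17.8 CPM in controls (SD, n = 4; limma-trend adjusted p = 0.758). Ncor1, a corepressor and the most abundant of the list, averaged 239 ± 9.91 CPM with WD+alcohol and 246 ± 19.2 CPM in controls (adjusted p = 0.886).

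Among 12 genes of oxysterol formation and removal, 9 were tested, 0 rose and 2 fell, with a median log2 fold change of -0.15. Cyp27a1, which makes the LXR ligand 27-hydroxycholesterol, had 284, 192, 252, 329 and 249 CPM in WD+alcohol livers, against 368, 610, 463 and 435 CPM in control livers. Every WD+alcohol library lay below every control, with a log2 fold change of -0.84 ± 0.15 (SE; limma-trend adjusted p = 0.00996). Cyp7b1, which hydroxylates and so removes such oxysterols, had 21.6, 26.1, 39.6, 50.5 and 25.2 CPM in WD+alcohol livers, against 102, 133, 124 and 99.1 CPM in control livers, with a log2 fold change of -1.84 ± 0.21 (adjusted p = 3.44e-04). An enzyme that forms an LXR ligand and one that removes it were thus both lower.

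Of 20 other LXR targets, 18 were tested, 4 rose and 0 fell (2 to 4 higher and 0 to 1 lower over the alternatives), with a median log2 fold change of 0.18. Apoc2, known as abundant in liver, was listed at 0 in every library, which may be a limit of the counting, was not tested, and is not read as absence of its RNA. The same holds for Ugt1a1, with 1 read in control 3, and for Hsd3b7 of the oxysterol list, with 1 read in WD+alcohol 1. Both were at 0 in all other libraries and were not tested. Lpl, the lipoprotein lipase of macrophages and adipocytes, had 191, 69.1, 96.1, 125 and 156 CPM in WD+alcohol livers, against 8.90, 19.1, 12.3 and 18.9 CPM in control livers (log2 fold change 2.99 ± 0.27, SE; limma-trend adjusted p = 7.03e-05). Scd1, the stearoyl-CoA desaturase, had 2743, 3157, 2863, 2124 and 3702 CPM in WD+alcohol livers, against 531, 1287, 1016 and 791 CPM in control livers (log2 fold change 1.74 ± 0.22; adjusted p = 7.04e-04). Both rises had no overlap between the groups. Mertk, a receptor by which macrophages engulf dying cells, had 34.8, 29.2, 31.7, 35.5 and 39.6 CPM in WD+alcohol livers, against 17.5, 23.5, 18.9 and 24.3 CPM in control livers (log2 fold change 0.68 ± 0.12; adjusted p = 0.00852). Smpdl3a, a phosphodiesterase, averaged 47.1 ± 7.48 CPM with WD+alcohol and 32.2 ± 4.49 CPM in controls (log2 fold change 0.53; adjusted p = 0.0390). Leaving out WD+alcohol 1 or 5, or control 1, 3 or 4, ended that call (adjusted p 0.0944 to 0.119), as did testing with no filter (0.0621). Over all alternatives the adjusted p ran over 0.0111 to 0.307.

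Srebf1, the lipogenic transcription factor through which LXRs act on fatty acid synthesis, had 39.9, 35.3, 60.2, 60.8 and 42.0 CPM in WD+alcohol livers, against 66.4, 59.0, 38.6 and 34.1 CPM in control livers. The groups covered much the same range (log2 fold change -0.04; 95% interval -0.48 to 0.41; limma-trend adjusted p = 0.973), and the sign turned in 5 of 20 alternatives. Cyp7a1, which starts the classic route from cholesterol to bile acids and is an LXR target in mouse, had 48.0, 14.1, 86.9, 75.6 and 39.4 CPM in WD+alcohol livers, against 22.6, 49.0, 37.2 and 12.1 CPM in control livers. It varied several-fold within each group and was not called (log2 fold change 0.72; 95% interval -0.28 to 1.72; adjusted p = 0.597). So Scd1 rose while Srebf1, which lies upstream of it in the textbook pathway, gave no call. The lipogenic genes Fasn and Acaca of the same list had negative log2 fold changes and were not called. These were -0.53 for Fasn (limma-trend adjusted p = 0.0631) and -0.31 for Acaca (0.176).

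In the list of sterol trafficking and lipoprotein cholesterol genes, 26 of 27 were tested, 1 rose and 3 fell, with a median log2 fold change of -0.09. The gene that rose was Cd36, a fatty acid and oxidised lipoprotein receptor of macrophages and hepatocytes (log2 fold change 1.62 ± 0.14, SE; limma-trend adjusted p = 4.79e-05). Stard4, a cytosolic sterol carrier, had 22.1, 21.1, 26.3, 21.2 and 24.4 CPM in WD+alcohol livers, against 48.6, 56.5, 44.5 and 36.4 CPM in control livers (log2 fold change -0.97 ± 0.12; adjusted p = 7.37e-04). Apoa1, the HDL protein that accepts cholesterol from Abca1, averaged 3436 ± 580 CPM with WD+alcohol and 5019 ± 382 CPM in controls (log2 fold change -0.56; adjusted p = 0.0407). It was not called when WD+alcohol 1, 2 or 5 was left out, or when any one control was (0.0689 to 0.117), nor with no filter (0.163) or quantile normalization (0.0661). Apoa1 is also on the hepatocyte list. Npc1, which carries cholesterol out of lysosomes, averaged 54.4 ± 7.2 CPM with WD+alcohol and 70.5 ± 18.5 CPM in controls and was not called (adjusted p = 0.431).

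**Figure D5:**
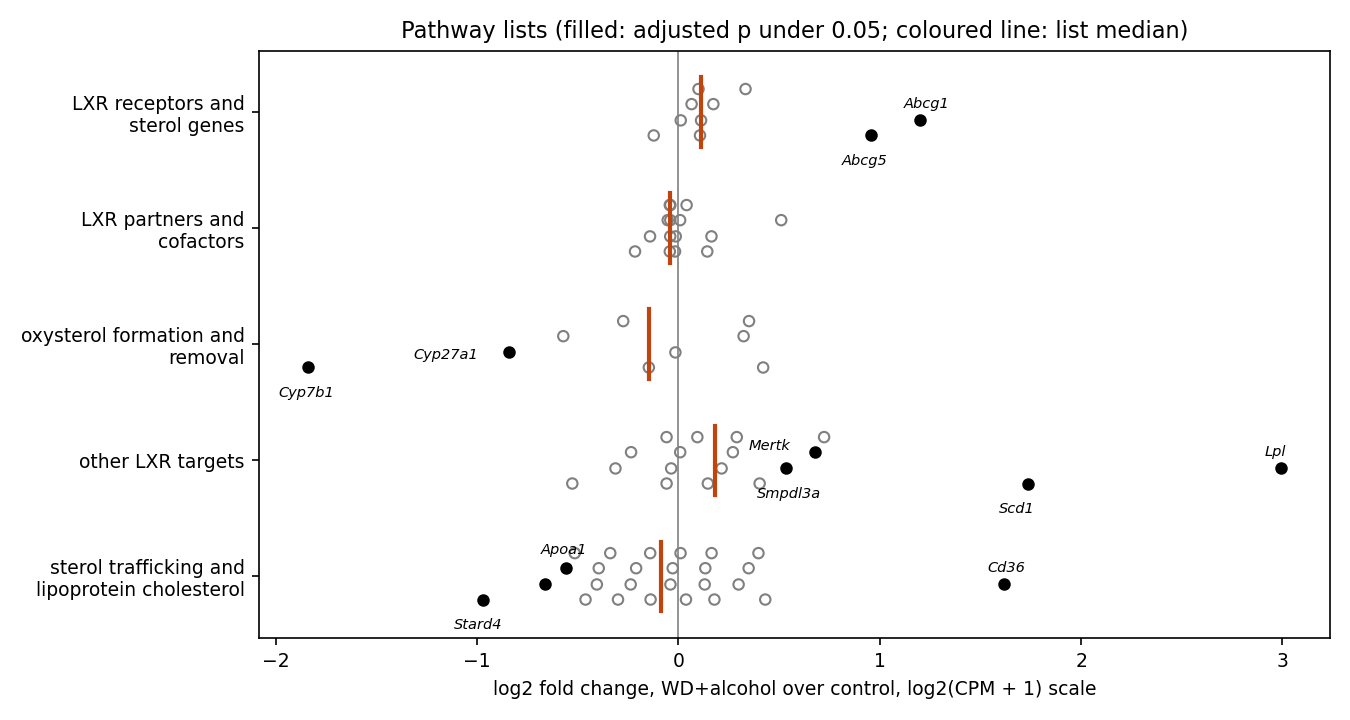
Log2 fold changes of the tested genes, 1 row per list, WD+alcohol over control on the log2(CPM + 1) scale; each point is a gene, filled where the adjusted p was under 0.05 (filled genes are named where the text gives their values), and the coloured line is the list median. No gene is filled among the LXR partners and cofactors (limma-trend), and filled genes lie on both sides of 0 in the sterol trafficking list.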

How the data were processed

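Liver 3′ mRNA libraries (Collibri kit, per the labels' protocols) of 5 WD+alcohol and 4 control mice were compared. The submitters' processing notes name the build GRCm39 and, without roles or order, HTSeq 0.11.0, STAR, edgeR 3.28.1, R 3.6.3, cutadapt 1.18 and Trim Galore 0.6.0. The strand setting, the treatment of multimapping reads and the annotation release are not given in the sources used here. The deposited values are a signal, CPM (counts scaled by library size) with a TMM adjustment by the authors. All positive values (100%, relative tolerance 1e-06) were whole multiples of the smallest in their column, which gave whole reads for depth and count tests. One read was worth 0.152 to 0.270 CPM.

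The test was limma-trend (two-sided; limma 3.58.1 under R 4.3.3) on log2(CPM + 1), for every gene averaging 1 CPM or more, with p-values adjusted by Benjamini-Hochberg over all of these. Fold changes on this scale understate the change of low genes. Each library was taken as 1 mouse, as the design text gives 5 and 4 mice; no pair of libraries was alike within counting noise (chi-square per degree of freedom at least 5.82). The labels give no batch. Alternatives were, for the count tests on recovered reads, edgeR's quasi-likelihood fit (version 4.0.16) and DESeq2 (version 1.42.0), and for limma-trend, a pseudocount of 0.25 or 5, a filter at 5 CPM or none, other scalings (one total per library, median of ratios, quantile), a robust fit, a replicate block, and each library left out in turn.

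The genes, lists and tests were chosen with earlier results of these data known. Named were the 10 genes, up to 4 called genes of each pathway list by smallest p (or its most abundant gene), Srebf1, Cyp7a1, Rxra, Cyp27a1 and Npc1, and the 3 genes closest to each called gene. Emg1, Apoc2, Trem2, Alb, Timd4, Marco, Cd14, Mpeg1, Fasn, Acaca, Ugt1a1 and Hsd3b7 were named after their values or annotation were seen. 1 called gene of the sterol trafficking list is counted but not reported here by name. Promoters came from RefSeq (GRCm38.p6) by symbol. Figures were drawn with Python 3.11.15 and matplotlib 3.10.9.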

Additional observations from a re-analysis of the deposited data

Results flagged for a closer look

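Dixon's criterion was applied to 64 sets of values, those of each gene named by rule in each group and the Abcg5 to Abcg8 ratio. In 2 of them a library stood apart from the rest of its group, which chance alone meets in about 1 in 20 sets. The highest Soat2 level with WD+alcohol was 17.8 CPM, in WD+alcohol 1, and the next was 13.4 CPM. The highest Smpdl3a level in controls was 38.9 CPM, in control 2, and the next was 30.5 CPM.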

How the results depend on the processing

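The calls of Abcg5 and Abcg1 were kept in 19 of 20 alternatives each, and the other 8 genes were called in none. The replicate number of the titles was used as a block over numbers 1 to 4. With this replicate block 0 of the 10 genes were called (Abcg5 log2 fold change 1.05, adjusted p = 0.0554; Abcg1 1.118, 0.0657) and 111 genes in all, 75 higher and 36 lower, against 338, 238 and 100. Same-numbered libraries of the groups had correlations of -0.31 to -0.0075 and did not correlate best with each other. These correlations show no pairing of the mice by number, but they cannot exclude it. The block also leaves out WD+alcohol 5. Over all genes, DESeq2 called 514 (165 lower) and one total per library gave 365 higher. Leaving out each library gave 201 (without WD+alcohol 5) to 387 calls (without WD+alcohol 4), 139 to 264 of them higher (148 without control 1) and 59 (without control 2) to 123 lower (62 without WD+alcohol 5), with 2 of the 10 genes higher each time. Signs that turned belonged to genes close to 0. Soat1 ran over -0.024 to 0.070 with each library left out and was -0.017 with the replicate block. Soat2 ran over -0.030 to 0.16, Srebf1 over -0.19 to 0.12 and Ncor1 over -0.077 to 0.0099 with each library left out. With one total per library Srebf1 was 0.018 and Ncor1 0.014. The cause was not tested. The difference in the log2 ratio of Abcg5 to Abcg8, an alternative added after seeing the data, was 0.81 to 0.95 with each library left out. Since its groups do not overlap, leaving out a library can only return the smallest p of that design (0.0179 or 0.0286), which is no sign of stability. Depth limits Abcg1 most, with as few as 18 reads in a library.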

Other observations

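Among the 10 genes, Nr1h3 and Abca1 moved in opposite directions within the groups. WD+alcohol 2 had the highest Abca1 of its group (193 CPM) and the lowest Nr1h3 (32.4 CPM), and WD+alcohol 3 the highest Nr1h3 (48.6 CPM) with 150 CPM of Abca1. Among controls, control 3 had the highest Abca1 (142 CPM) and the lowest Nr1h3 (29.4 CPM), and control 2 the lowest Abca1 (113 CPM) and the highest Nr1h3 (47.7 CPM). After subtraction of group means, Pearson's r of the log2 levels was -0.92 over 9 libraries, the lowest of the 45 pairs, and Abca1 and Lpcat3 followed at -0.81. The pair was picked as the extreme of 45 after the values were seen, and no test was made of it.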
